A study of Mus musculus with 4 samples.

Results

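The genes described here are 49 mouse genes of DNA replication and S phase, chosen by name for their roles at the origin and at the replication fork. Probes were matched to genes by RefSeq accession first, and otherwise by the gene name on the array, current or older symbol. This gave 63 probes for the 49 genes. Of these genes, 48 were measured, out of 15961 measured genes among the 29871 gene names assigned to the array's probes. Ccne2, which encodes cyclin E2, was the exception: its signal was well above background on 0 of 4 arrays. Each of the other 48 was well above background on all 4 arrays, so none entered through the array on which it was bright.

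Replication begins when the origin recognition complex, with Cdc6 and Cdt1, loads the MCM2-7 helicase onto DNA in G1, and it fires when Cdc45, Mcm10 and the GINS complex turn the helicase on. Polymerases alpha, delta and epsilon then copy the strands, and the PCNA clamp holds polymerase delta on DNA. RPA coats single-stranded DNA, and FEN1 and DNA ligase I finish the lagging strand. Resting B cells are outside the cell cycle and enter it after stimulation through the B cell receptor and CD40, when cyclin E and E2F transcription factors induce many of these genes.

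The cells were B cells purified with magnetic beads from the spleens of male C57BL/6 mice (labelled WT) and male Ackr4-deficient mice (labelled Ackr4ko). In experiments 1 and 2 the ages were 73 and 71 days for Ackr4ko and 77 and 74 days for WT. WT was the older in each, so age and genotype label cannot be told apart. Ackr4 is an atypical chemokine receptor that takes up chemokines without G protein signalling. All cultures received anti-IgM and anti-CD40 for 3 days. The series holds 2 independent experiments with different donors, each with 1 array per genotype, so each genotype has 2 arrays and replicate number stands for experiment. No untreated or day-0 cells are part of it. The comparison asks how gene expression in activated B cells differs with Ackr4 deficiency. The labels do not give the allele or state whether an array holds 1 mouse or a pool. In bulk RNA of this kind, a smaller share of cells in S phase and less of each mRNA per cell cannot be told apart.

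The values are log2 signals from 1-colour Agilent arrays, scaled so that each array's 75th percentile is equal. The label of each array is open to doubt. Within each experiment, the columns of the authors' deposited value table fitted the scanner arrays crosswise, the Ackr4ko column to the WT array and the WT column to the Ackr4ko array, with r of 0.999 to 1.000 over 16207 probes, against 0.979 to 0.986 for the array of its own label. Ackr4 itself did not check the labels, since both of its probes were well above background on 0 of 4 arrays. Arrays are therefore called by the label of the scanner file throughout, and every Ackr4ko-minus-WT difference below takes the other sign if the table's genotypes are the right ones. The array labelled WT replicate 2 also stood apart, with 6.24% of its spots marked as outliers against 1.79% to 2.12% on the others, and a highest local background of 292 against 61 to 76. All 9 of 9 B cell markers used here (Cd79a, Cd79b, Ms4a1, Pax5, Cd22, Ebf1, Cd74, Blk and Cr2) were measured, with a median difference of -0.23 (0.11 in experiment 1 and -0.33 in experiment 2). Of markers of other cells, 8 of 10 T cell, 5 of 8 macrophage and monocyte, 5 of 8 dendritic cell, 2 of 6 NK cell, 2 of 6 neutrophil and 1 of 7 erythroid and platelet genes were measured, as were 5 of 6 plasma cell genes. The 5 measured dendritic cell markers had a median difference of 1.00 (log2), or 0.60 over the 4 above background on every array, since Batf3 was measured through 2 arrays only. They had summed signals of 99065 and 148140 on the Ackr4ko arrays and 102790 and 115120 on the WT arrays, while Itgax, Xcr1 and Clec9a were not measured above background. In experiments 1 and 2 the median differences were -0.21 and -0.06 for T cell, -0.28 and -0.07 for macrophage and monocyte, -0.20 and 0.88 for NK cell, 0.24 and 0.40 for neutrophil and 0.12 and 0.09 for plasma cell markers. The part of these markers in the values below was not tested.

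Many replication genes share E2F sites near their start, so the sequences upstream of members were read from RefSeq (GRCm38.p6) before the signals are given. Windows of 300 bases, from 250 before to 50 after each annotated start, were found for 41 of the 49 genes. Both strands were searched for TTTCGCGC, TTTGGCGC, TTTCCCGC and TTCCCGCC, of which the last pair overlap in TTTCCCGCC. At least 1 of these strings of letters lay in a window of 20 of the 41 genes (48.8%), against 1081 of all 27025 genes with such windows (4.00%). TTTCGCGC alone was found in 7 of the 41 (17.1%) against 0.374% of all genes, TTTGGCGC in 7 (17.1%) against 0.585%, TTTCCCGC in 7 (17.1%) against 1.24% and TTCCCGCC in 8 (19.5%) against 2.52%. CCAAT, the box bound by NF-Y, was in 25 (61.0%) against 41.1%. The 250 bases upstream of 4 genes that recur below are shown, with matches in capitals: Orc1 and Cdc6 of the licensing group, Mcm6 of the helicase ring, and Tk1, a gene with a large difference and no match.
Orc1, chr4:108579204-108579453, plus strand: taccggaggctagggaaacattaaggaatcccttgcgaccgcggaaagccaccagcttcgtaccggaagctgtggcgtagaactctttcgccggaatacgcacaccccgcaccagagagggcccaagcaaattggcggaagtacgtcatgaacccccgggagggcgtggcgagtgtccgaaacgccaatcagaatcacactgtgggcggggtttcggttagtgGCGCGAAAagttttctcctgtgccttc
Cdc6, chr11:98907901-98908150, plus strand: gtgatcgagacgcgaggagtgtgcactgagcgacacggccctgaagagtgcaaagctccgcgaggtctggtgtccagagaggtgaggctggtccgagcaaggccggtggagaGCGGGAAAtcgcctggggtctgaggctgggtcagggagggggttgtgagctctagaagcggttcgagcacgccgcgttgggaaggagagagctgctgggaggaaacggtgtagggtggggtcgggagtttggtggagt
Mcm6, chr1:128359706-128359955, minus strand: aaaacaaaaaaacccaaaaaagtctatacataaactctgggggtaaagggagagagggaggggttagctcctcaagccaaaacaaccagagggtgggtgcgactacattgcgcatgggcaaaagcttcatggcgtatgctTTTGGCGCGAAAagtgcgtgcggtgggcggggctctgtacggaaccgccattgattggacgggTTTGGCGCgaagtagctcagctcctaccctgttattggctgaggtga
Tk1, chr11:117826015-117826264, minus strand: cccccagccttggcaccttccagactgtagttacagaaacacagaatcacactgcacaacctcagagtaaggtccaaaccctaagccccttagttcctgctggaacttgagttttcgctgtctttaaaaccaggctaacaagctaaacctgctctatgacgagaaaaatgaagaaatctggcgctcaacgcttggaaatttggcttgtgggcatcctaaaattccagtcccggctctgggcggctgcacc
The Orc1 match begins 27 bases before the start and the Cdc6 match 138 bases before it. In Mcm6 a stretch of overlapping matches begins 110 bases before the start and another match 47 bases before it. A match is a description of the letters and was not tested as a binding site. The 20 genes with a match had a median Ackr4ko-minus-WT difference of 0.35 (log2, -0.22 to 0.95) and the 21 without one a median of 0.23 (-0.19 to 0.75), and the ranges overlapped.

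Most of the 48 genes were somewhat brighter on the arrays labelled Ackr4ko, and none of them passed the test. The median difference was 0.33 on the log2 scale, with a range from -0.22 for Cdt1 to 0.95 for Pold1, beside a median of 0.08 over all 15961 genes. By limma with no block and Benjamini-Hochberg adjustment over all genes, 0 of 48 were called, beside 2 of all genes (0.0125%), and the lowest adjusted p of a member was 0.913, for Pold1. At an unadjusted p below 0.05 there was 1 member, Pold1, which is 2.08% of the 48 beside 4.59% of all genes. With the experiment as a block, 0 members were called beside 3.33% of all genes, and the lowest adjusted p was 0.131. Standard errors ran from 0.32 to 0.54. The difference exceeded 1 standard error for 16 genes and 2 standard errors for 2 genes. The shares of all genes past these limits were not counted. Each genotype had 2 arrays, so an exact two-sided permutation test of a single gene, without pairing, could not go below p = 0.333.

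With the 75th percentile scaling, the difference was smaller in experiment 1 than in experiment 2, for the members as for all genes. In experiment 1 the median was 0.12 and 28 of 48 genes were higher on the array labelled Ackr4ko (58.3%, beside 44.6% of all genes). In experiment 2 the median was 0.44 and 44 of 48 were higher (91.7%, beside 67.5%). The medians of all genes were -0.04 and 0.23. The difference was larger in experiment 2 for 39 genes (beside 66.5% of all genes), but for 26 with quantile normalization (beside 53.6%). In both experiments 25 genes were higher (52.1%, beside 33.0% of all genes), 1 was lower (2.08%, beside 20.9%), and 22 went opposite ways. Set against the median of all genes rather than 0, 31 were above it in experiment 1 (64.6%, beside 50.0%), 35 in experiment 2 (72.9%, beside 50.0%) and 25 in both (52.1%, beside 28.5%). With quantile normalization 20 genes were above 0 in both experiments and 7 below it (beside 29.7% and 28.1% of all genes), experiment 2 had 31 genes higher instead of 44 (beside 53.7%), and the medians of the experiments were 0.16 and 0.14. A 2-fold difference in one direction in each experiment was reached by 0 of 48, beside 1.28% of all genes for higher and 0.514% for lower. Spots on an array are not replicates of a genotype, but their spread was small: the difference exceeded 2 spot standard errors for 38 genes in experiment 1 and 45 in experiment 2. The shares of all genes past this limit were not counted.

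**Figure D1:**
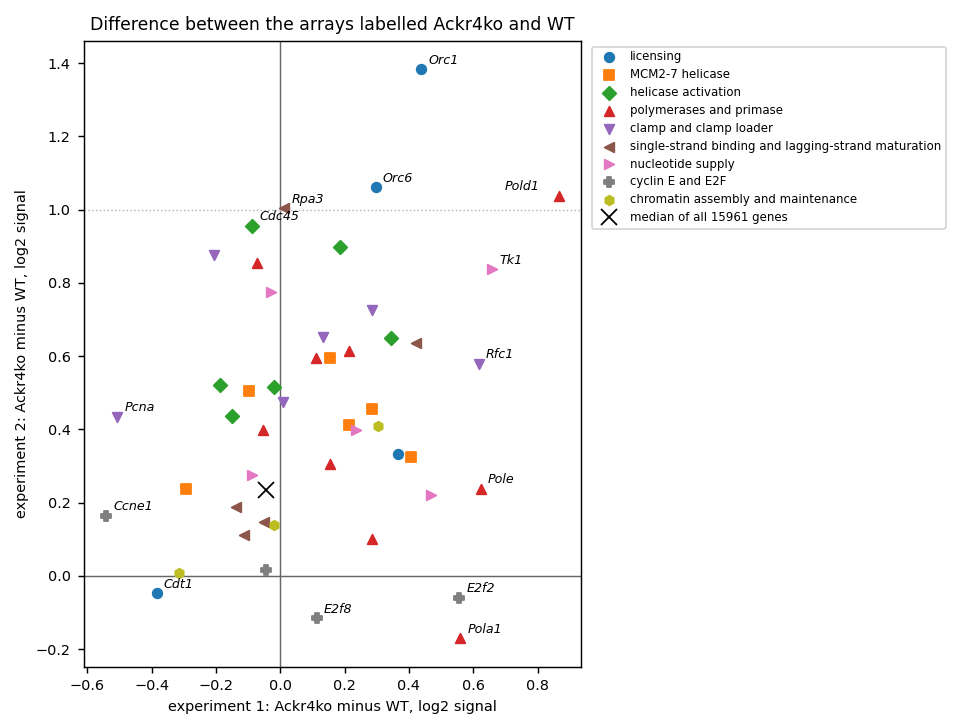
Difference in log2 signal between the arrays labelled Ackr4ko and WT in experiment 1 (horizontal axis) and experiment 2 (vertical axis) for 48 replication genes, marked by role, with the median of all 15961 genes as a cross. Points in the upper right are the 25 genes higher in both experiments, Cdt1 alone lies in the lower left, and the dotted line marks a 2-fold difference in experiment 2.

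The role groups are given with their medians over all 4 arrays, but without Ackr4ko replicate 2 neither their order nor most of their signs held: licensing then had 0.09, the MCM2-7 ring 0.16, polymerases and primase 0.02, helicase activation -0.25, clamp and loader -0.14, single-strand binding and maturation -0.18, nucleotide supply -0.10, cyclin E and E2F -0.07 and chromatin -0.06. Licensing genes had a median of 0.51 over 4 genes (0.33 in experiment 1 and 0.70 in experiment 2). Orc1, the largest subunit of the origin recognition complex, had log2 signals of 8.09 (replicate 1) and 9.26 (replicate 2) under the label Ackr4ko, against 7.66 and 7.88 under WT; pairs below follow this order. The groups did not overlap, and Ackr4ko replicate 2 was the brightest by over 1 log2 unit. The difference was 0.91 ± 0.43 (SE), a fold of 1.88, with a limma adjusted p of 1.00 without a block and 0.168 with it. Orc6, another subunit, had 13.55 and 14.88 against 13.26 and 13.82. Its groups overlapped, because Ackr4ko replicate 1 was dimmer than WT replicate 2, though Orc6 was higher within both experiments (0.30 and 1.06). The mean difference was 0.68 ± 0.47 (SE). Cdc6, which joins ORC to load the helicase, had 9.49 and 9.84 against 9.13 and 9.51, a difference of 0.35 ± 0.34 (SE) on its brightest probe. Cdt1, the other loading factor, was the only gene of the 48 lower on the array labelled Ackr4ko in both experiments. Its log2 signals were 13.23 and 13.31 against 13.61 and 13.36, a difference of -0.22 ± 0.32 (SE), and most of it lay in experiment 1 (-0.39 against -0.05).

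The 6 subunits of the MCM2-7 helicase, which work as a ring in equal numbers, had a median difference of 0.34 (0.18 and 0.43). Mcm3, Mcm4, Mcm5 and Mcm7 were higher in both experiments with groups that did not overlap, by 0.37, 0.37, 0.37 and 0.31. Mcm4 had the highest difference of the ring: 14.40 and 14.84 against 14.24 and 14.24, or 0.37 ± 0.34 (SE). Mcm6 gave 0.20, with -0.10 in experiment 1 and 0.50 in experiment 2. Mcm2 stood lowest, at -0.03 ± 0.33 (SE), from 11.17 and 11.39 against 11.46 and 11.16. The sign of Mcm2 was opposite in the experiments (-0.29 and 0.24) and turned positive with normexp background correction (0.0025) and with the percentile taken over kept spots (0.0079).

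Of the 6 genes that activate the helicase, 6 were higher in experiment 2 and 2 in experiment 1. The group median was 0.34, with -0.05 in experiment 1 and 0.58 in experiment 2. Gins2, a subunit of the 4-part GINS complex, had the highest difference: 11.47 and 12.96 against 11.28 and 12.06, or 0.54 ± 0.52 (SE). Gins4 had the lowest, 0.14 ± 0.43 (SE), from 11.56 and 12.64 against 11.71 and 12.20. In both genes the arrays of experiment 2 were brighter than those of experiment 1 whatever the label, so the groups overlapped. Mcm10 (0.50) was the only one of the 6 with groups that did not overlap. Cdc45, which binds MCM and GINS to form the active helicase, differed by -0.09 in experiment 1 and 0.96 in experiment 2.

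The 9 polymerase and primase genes had a median of 0.35 (0.21 and 0.40), and 6 were higher in both experiments. Pold1, the catalytic subunit of polymerase delta, had the largest difference of the 48 genes. Its log2 signals were 14.44 and 14.97 for Ackr4ko and 13.57 and 13.93 for WT (means 14.70 ± 0.38 and 13.75 ± 0.25, SD, n = 2). The groups did not overlap, and the difference was close in both experiments, 0.87 and 1.04. The mean, 0.95 ± 0.35 (SE), corresponds to a fold of 1.93, with an adjusted p of 0.913 by limma. Its accessory subunit Pold3 had the lowest difference of the group, 0.17 ± 0.34 (SE), from 12.83 and 13.33 against 12.88 and 12.94. Pole, the catalytic subunit of polymerase epsilon, had 13.14 and 12.91 against 12.51 and 12.67, a difference of 0.43 ± 0.32 (SE) with no overlap. Pola1, the catalytic subunit of polymerase alpha, went the opposite way in the experiments (0.56 and -0.17), while Prim1 (-0.07 and 0.85) did so in reverse.

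The clamp PCNA and the 5 genes of its loader, replication factor C, had a median of 0.36 (0.07 and 0.62). They differed from each other. Rfc1, the large subunit of the loader, was higher by nearly the same amount in both experiments, 0.62 and 0.58. Its log2 signals were 12.98 and 13.20 against 12.36 and 12.62, with no overlap, and the difference was 0.60 ± 0.33 (SE, adjusted p = 1.00 by limma). Rfc2, Rfc3, Rfc4 and Rfc5 had mean differences of 0.24 to 0.50 and groups that overlapped. Pcna had 15.06 and 16.14 against 15.56 and 15.71. Ackr4ko held both the dimmest and the brightest array for Pcna, so the differences were -0.51 and 0.43, and the mean was -0.04 ± 0.41 (SE).

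Genes of single-strand binding and lagging-strand maturation had a median of 0.05 over 5 genes (-0.05 and 0.19), with differences of -0.00 to 0.53. Lig1, DNA ligase I, had 14.18 and 14.81 against 13.76 and 14.17 and did not overlap, with a difference of 0.53 ± 0.37 (SE). Rpa3, the smallest subunit of RPA, differed by 0.01 in experiment 1 and 1.00 in experiment 2. Its log2 signals were 13.75 and 15.43 against 13.73 and 14.42, so a single array stood above the other 3. The mean was 0.51 ± 0.54 (SE), while the other RPA subunits gave 0.02 (Rpa1) and 0.05 (Rpa2). Fen1, the flap endonuclease, was level between labels at -0.00 ± 0.33 (SE), from 14.05 and 14.39 against 14.17 and 14.28, and its sign changed with normexp (0.06) and with the percentile over kept spots (0.04).

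The 5 genes of nucleotide supply had a median of 0.34 (0.23 and 0.40). Tk1, thymidine kinase of the salvage pathway, had the highest difference of the group: 13.84 and 14.65 against 13.18 and 13.81 on its brightest probe. The groups did not overlap, since Ackr4ko replicate 1 lay just above WT replicate 2, and the difference was 0.75 ± 0.40 (SE, adjusted p = 1.00 by limma). Tyms, which makes thymidylate by the other route, had the lowest, 0.09 ± 0.34 (SE), from 8.17 and 8.63 against 8.26 and 8.35. The ribonucleotide reductase subunits Rrm1 and Rrm2 gave 0.34 and 0.32, and Dut, which clears dUTP, gave 0.37.

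The regulators and the chromatin genes had medians near 0. Of cyclin E and the E2F factors, 4 of 5 genes were measured, with a median of -0.01 (0.03 and -0.02), and 4 of 4 went opposite ways in the experiments. E2f2 had the highest difference, 0.25 ± 0.34 (SE), from 13.06 and 12.82 against 12.50 and 12.88. Ccne1, cyclin E1, had the lowest, -0.19 ± 0.42 (SE), from 11.20 and 12.29 against 11.74 and 12.13. E2f1 gave -0.01, and E2f8, a repressor of the family, gave -0.00. Among the 3 chromatin genes the median was 0.06 (-0.02 and 0.14). Chaf1a, the large subunit of chromatin assembly factor 1, had 11.36 and 11.60 against 11.06 and 11.19, with no overlap, or 0.36 ± 0.32 (SE). Its partner Chaf1b gave 0.06. Uhrf1, which brings DNA methylation to new strands, had 13.47 and 13.57 against 13.79 and 13.56, or -0.15 ± 0.32 (SE). No test compared one role group with another.

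**Figure D2:**
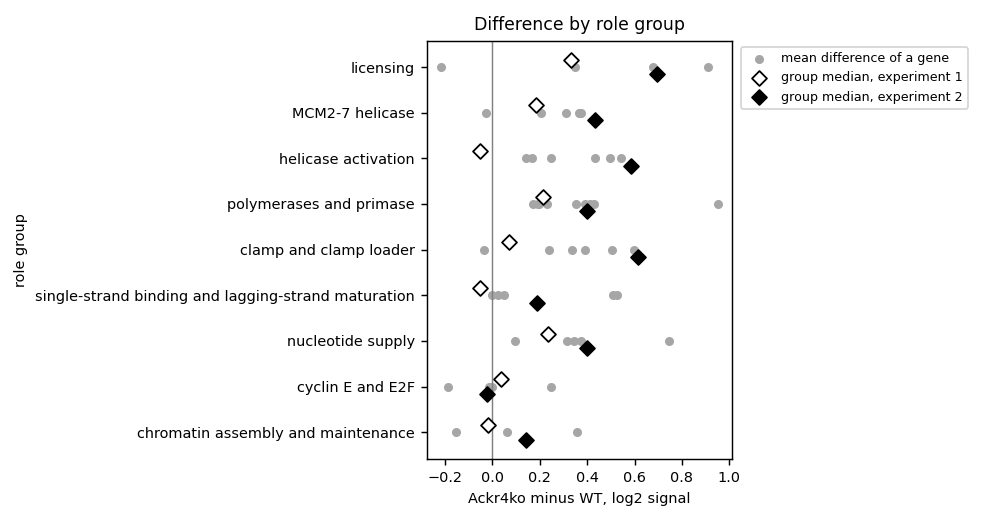
Ackr4ko-minus-WT difference in log2 signal (horizontal axis) by role group (vertical axis): grey points are genes, open diamonds the group median in experiment 1 and filled diamonds that in experiment 2. With the 75th percentile scaling, group medians were farther right in experiment 2 for all groups other than cyclin E and E2F. There they ran from 0.14 for chromatin genes to 0.70 for licensing. The median of all tested genes also moved, from -0.04 in experiment 1 to 0.23 in experiment 2.

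Over all 48 genes, the groups did not overlap for 14: in 13 Ackr4ko was higher (27.1%, beside 19.0% of all genes) and in 1, Cdt1, it was lower (2.08%, beside 10.0%). The 13 were Orc1, Mcm3, Mcm4, Mcm5, Mcm7, Mcm10, Pola2, Pold1, Pole, Rfc1, Lig1, Tk1 and Chaf1a. A difference of at least 2-fold in experiment 2 was seen for 4, Orc1, Orc6, Pold1 and Rpa3 (8.33%, beside 6.08% of all genes), of which 1, Orc1, stayed past it with quantile normalization. In experiment 1 there were 0 (beside 3.08%). The differences were spread less between members (SD 0.26) than between all genes (SD 0.47). Members were also brighter, with a median log2 signal of 13.05 over the 4 arrays beside 10.02 for all genes. All genes include those above background on only 2 arrays. The part of brightness in the spread was not tested.

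The signal of most of the genes also differed between the experiments. The signal was higher in experiment 2 than in experiment 1 within both labels for 41 of 48 genes (85.4%, beside 33.0% of all genes). The median gap from experiment 1 to 2 was 0.52 under the label Ackr4ko and 0.28 under WT, beside 0.13 and -0.08 for all genes. For 31 genes the Ackr4ko-minus-WT differences of the 2 experiments lay farther apart than the size of their mean. The share of all genes for which this held was not counted. Ackr4ko replicate 2 was the brightest of the 4 arrays for 41 genes (85.4%, beside 45.3%) and the dimmest for 0 (beside 23.9%). WT replicate 1 was the dimmest for 27 (56.2%, beside 23.7%) and Ackr4ko replicate 1 for 19 (39.6%, beside 23.8%). The other 7 genes were brightest elsewhere: Pole and E2f2 on Ackr4ko replicate 1 (4.17%, beside 16.6%), Cdt1, Mcm2 and Uhrf1 on WT replicate 1 (6.25%, beside 28.7%), and Pola1 and E2f8 on WT replicate 2 (4.17%, beside 9.27%). Mcm2 and Pola2 were dimmest on WT replicate 2 (4.17%, beside 28.5%). These counts depended on the scaling. Before it, the 75th percentile was lowest on Ackr4ko replicate 2 (739.7) and highest on Ackr4ko replicate 1 (1277). The log2 values subtracted from these arrays were -0.35 and 0.44. Members were also brighter than all genes, and the part of brightness in these counts was not tested. With quantile normalization 30 genes were higher in experiment 2 within both labels and 25 were brightest on Ackr4ko replicate 2, beside 30.5% and 34.4% of all genes, and the median gap became 0.25 for Ackr4ko and 0.34 for WT.

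**Figure D3:**
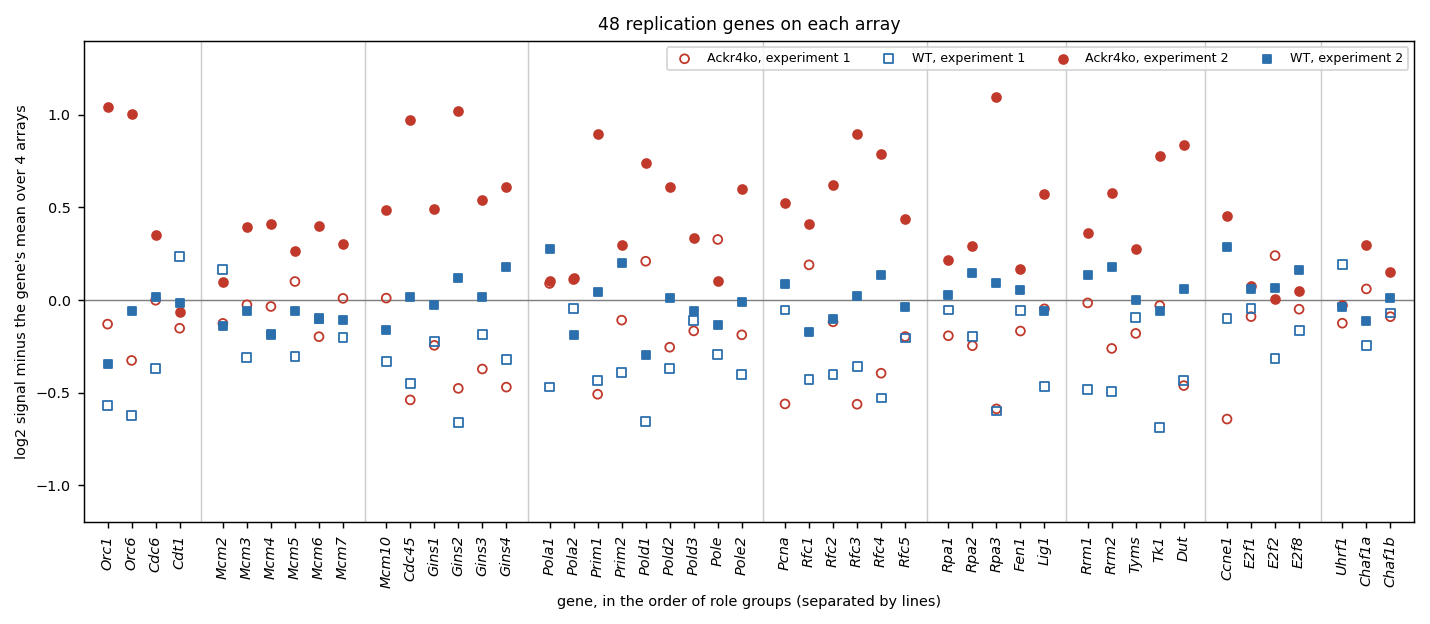
Log2 signal of each of the 48 genes on each array, as the deviation from the mean of that gene over the 4 arrays (vertical axis), with genes in role order along the horizontal axis. Red circles are arrays labelled Ackr4ko, blue squares those labelled WT, open for experiment 1 and filled for experiment 2; the filled red circle is the highest for 41 genes.

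The gap between experiments was uneven among the genes. Under the label Ackr4ko it was largest for Rpa3 (1.68), Cdc45 (1.51), Gins2 (1.50), Rfc3 (1.46) and Prim1 (1.41), and under WT the same 5 gave 0.69, 0.47, 0.78, 0.38 and 0.48. At the other end were E2f2 (-0.23 and 0.38), Pole (-0.22 and 0.16) and Pola2 (0.01 and -0.14). The gap was larger under the label Ackr4ko for the 39 genes whose difference was larger in experiment 2, since both counts rest on the same 4 values, and for 26 with quantile normalization. Leaving out an array at a time moved the median difference between labels to 0.54 (Ackr4ko replicate 1 left out), 0.15 (WT replicate 1), 0.49 (WT replicate 2) and -0.08 (Ackr4ko replicate 2). The medians of all genes in those fits were 0.16, 0.13, 0.03 and 0.01. Without Ackr4ko replicate 2, then, the median was no longer above 0.

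**Figure D4:**
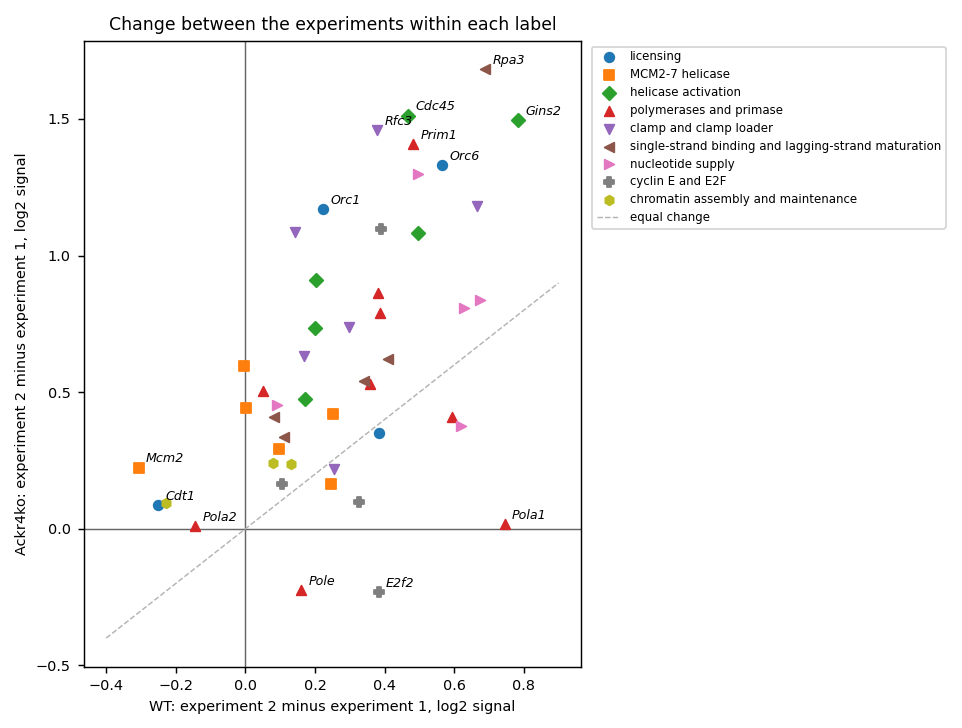
Log2 signal in experiment 2 minus experiment 1 on the arrays labelled WT (horizontal axis) and labelled Ackr4ko (vertical axis) for the 48 genes, marked by role, with a dashed line of equal change. Of the 48, 41 lie in the upper right, and 39 lie above the dashed line (26 with quantile normalization).

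Several members were read by more than 1 probe, which checks a gene within an array but adds no replicate. Of 11 genes with several measured probes, 8 had probes within 0.5 of each other. Mcm3 gave 0.37 and 0.37, Prim2 0.19 and 0.21, and Rpa1 0.02 and 0.06. The probes of 3 genes disagreed. The brightest Cdc6 probe (mm9, chr11:98782986-98783045) gave 0.35 and a dimmer one farther along the gene (chr11:98785169-98785228) gave -0.42, from 0.07 in experiment 1 and -0.92 in experiment 2. The brightest Pole probe gave 0.43 and another, designed on a cDNA, gave 0.95, from 0.21 in experiment 1 and 1.70 in experiment 2. Tk1 gave 0.75, 0.62 and -1.06. The third Tk1 probe (mm9, chr11:117685654-117685713), designed on another transcript, was near background: all of its spots were well above it on Ackr4ko replicate 1 only, and 50% on WT replicate 2. Whether a probe lies in an exon, intron or UTR was not looked up, because no annotation of mm9 was used here.

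**Figure D5:**
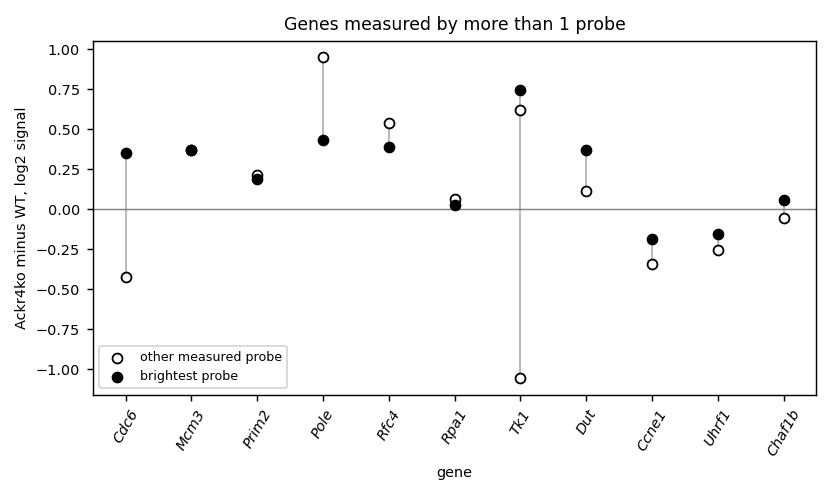
Ackr4ko-minus-WT difference in log2 signal (vertical axis) for each measured probe of the 11 genes with more than 1 (horizontal axis); filled points are the brightest probe, which represents the gene, and open points the others. The probes of Cdc6, Pole and Tk1 lie more than 0.5 apart, and those of Mcm3 coincide.

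Further genes of the same pathways, taken from lists rather than for their values, had differences between -0.56 and 0.97. Of 73, 72 were measured and 0 were called by limma (2 at an unadjusted p below 0.05, E2f5 and Cdk6, or 2.78% beside 4.59% of all genes), with a median of 0.25 (0.06 in experiment 1 and 0.39 in experiment 2), 35 higher in both experiments (48.6%, beside 33.0%) and 11 lower in both (15.3%, beside 20.9%). Without Ackr4ko replicate 2 their median was 0.03. Among 18 other licensing and firing genes (median 0.38), Orc5 was the highest at 0.65 ± 0.33 (SE) and Donson the lowest at -0.34 ± 0.33 (SE). Among 19 other fork genes (median 0.25), Rnaseh2a, which removes RNA from DNA, gave 0.56 and Dscc1, of an alternative clamp loader, -0.30. Among 10 other nucleotide genes (median 0.21), Dctpp1 gave 0.56 and Samhd1, which breaks down dNTPs, -0.56. Samhd1 was lower in both experiments (-0.20 and -0.91), with log2 signals of 13.06 and 11.91 against 13.26 and 12.82. Among 10 other chromatin genes (median 0.08), Hells gave 0.75 and Tonsl -0.13. Of 15 measured E2F and RB genes (median 0.20), Cdk6 gave 0.97 ± 0.40 (SE) and Tfdp2, a partner of E2F, -0.42 ± 0.34 (SE). Cdk6 was well above background on 3 of 4 arrays.

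Genes of the later phases, G2 and M, were taken for comparison. Their median was 0.49 over the 21 of 22 that were measured, with 0.49 in experiment 1 and 0.43 in experiment 2, and 19 were higher in both experiments (90.5%, beside 33.0% of all genes). By limma 0 of the 21 were called (2, Tpx2 and Ttk, or 9.52%, at an unadjusted p below 0.05, beside 4.59% of all genes). Tpx2, a spindle factor, was the highest at 0.95 ± 0.37 (SE) and Ccnb1, cyclin B1, the lowest at -0.25 ± 0.34 (SE). In experiment 1 their median exceeded that of the replication genes (0.49 against 0.12), and in experiment 2 the medians were 0.43 and 0.44; this gap was not tested. Leaving out arrays gave 0.14 to 0.73 for the G2 and M genes. Of the inhibitors of cyclin-dependent kinases, 6 of 7 were measured and 0 were called by limma without a block. At an unadjusted p below 0.05 there were 3 (Cdkn1a, Cdkn2a and Cdkn2b), or 50.0% of the 6, beside 4.59% of all genes. Cdkn1a, which encodes p21, had log2 signals of 7.82 and 9.92 on the arrays labelled Ackr4ko and was not well above background on either array labelled WT, with an adjusted p of 0.123 by limma. With the experiment as a block, the same 3 of the 6 were called, beside 3.33% of all genes. Both counts have the same limit. Each of the 3 was well above background on the 2 arrays labelled Ackr4ko only and so was tested through the group where it is high. Quantile normalization with the block called 0 of all genes.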

How the data were processed

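Total RNA (50 ng) was labelled with Cy3 and hybridised to 1-colour Agilent arrays, per the labels' protocols. Per the submitters' processing notes, the authors' software was Agilent Feature Extraction 10.7.3.1. The deposited scanner files give each spot's intensity, background-corrected, with flags for outliers and signal over background. Log2 of the processed intensity was scaled by the 75th percentile in each file's header. Outlier spots were dropped and the 4 spots of a probe averaged. Probes entered the test with 50% of spots marked well above background on 2 or more arrays (20862 of 39429), and the brightest tested probe stood for its gene. The genotype labels were compared by limma 3.58.1 (R 4.3.3), two-sided, without a block and, as an alternative, with the experiment as a block, since the series states 2 experiments (deviations of arrays in the same experiment correlated at 0.421). How the authors' value table was normalised is not given in the sources used here. Nothing says that replicates are separate mice beyond different donors per experiment. Members and lists were chosen with earlier results of these data known, so counts and medians carry no test. Genes named are the highest and lowest of each role, those 2-fold different in an experiment and those whose probes disagree. The fit was also run on simulated data with planted differences larger than any member's, the same spread for every gene and unlinked arrays. That run therefore does not show how the fit handles differences of the members' size. A gene of the B cell marker list is not reported here and is left out of that list's count and median.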

Additional observations from a re-analysis of the deposited data

How the results depend on the processing

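Members called stayed at 0 under every alternative run, while genes called over the whole array ranged from 0 (no filter, with 296 at an unadjusted p below 0.05, and probes above background on all 4 arrays, with 524) to 126 (normexp) without a block, from 1 to 122 with an array left out, and reached 532 with the replicate block, with no member among them, so the block changed no member's call; quantile normalization with the replicate block called 0 genes (1447 at an unadjusted p below 0.05). The median difference of members stayed positive, at 0.18 to 0.36, under quantile and median scaling, normexp, the filters, averaged probes, the percentile over kept spots and the value table matched to scanner arrays (the last 2 added after seeing the data), and leaving out an array gave -0.077 to 0.54. With no filter, which adds dim probes, the median of all genes was -0.26 beside the members' 0.32. That wider distance comes from the added probes and not from the members. WT replicate 2 had the highest local background, 292, and its part in the dim probes was not tested. Under the value table's own labels the median was -0.18, and 7 members were higher in both experiments and 20 lower, because its columns carry the other genotype; the same table under the matching scanner arrays gave 0.18 and 20.

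Under those labels 21 named genes had the opposite sign: Orc1 -0.85, Pold1 -0.81, Tk1 -0.60, Orc6 -0.51, Rfc1 -0.50, Gins2 -0.41, Lig1 -0.37, Rpa3 -0.34, Cdc6 -0.33, Pole -0.33, Chaf1a -0.25, Mcm4 -0.19, E2f2 -0.14, Pold3 -0.032, Tyms -0.0095, Mcm2 0.10, Fen1 0.14, Pcna 0.20, Ccne1 0.31, Uhrf1 0.34 and Cdt1 0.36. Gins4 turned to -0.0066 under the matched table, Cdc6 to -0.038 with averaged probes, and Mcm2 and Fen1 to 0.0025 and 0.059 with normexp and 0.0079 and 0.036 with the percentile over kept spots; the cause was not tested. Leaving out an array at a time, Mcm2 ran from -0.18 to 0.13, Pcna ran from -0.58 to 0.51, Fen1 ran from -0.17 to 0.17, Ccne1 ran from -0.74 to 0.36, Gins4 ran from -0.40 to 0.68, Gins2 ran from -0.21 to 1.29, Pold3 ran from -0.080 to 0.42, Rpa3 ran from -0.33 to 1.35 and Tyms ran from -0.13 to 0.32. The number of arrays, 2 per genotype, limits the precision, and intensities carry no counting interval.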
